A study of Mus musculus with 38 samples.

Results

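The genes described here encode CD antigens, the numbered surface molecules by which blood cells are told apart. They were taken from the array by name: each probe whose accession maps to 1 gene symbol made of Cd and a digit was kept, except Cd4 and Cd2ap, which encodes a protein that binds Cd2. This left 52 genes with 1 probe each, out of 21618 distinct probes on the array, of which 6518 have 1 symbol. Of the 52, 40 had values on at least 19 arrays and with both dyes in every strain, so that they could be tested. The other 12 are accounted for by the arrays on which they were measured.

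Male mice of 6 inbred strains received 10 rad (10 cGy) of X-rays or a sham exposure, and spleen RNA was taken 3.5 hr later. The labels give an age of 10 to 14 weeks for all strains, and no transgene, deletion or other treatment. Each of 38 two-colour arrays set 1 irradiated mouse against 1 sham mouse of the same strain. The strains A/J, B6.C and Balb/C (BalbxJ in the labels) had 8 arrays each, C3H/HeJ (C3H) had 6, and C57Bl6/J (BI6Jx) and DBA/2J had 4 each. Irradiated RNA was labelled with the dye Cy5 on one side of each swap and with Cy3 on the other, which gave 19 arrays of either kind. Dye swaps repeat a pair of mice, and the labels do not say which arrays belong together.

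CD antigens serve blood cells as receptors, adhesion molecules and regulators of signalling. The antigen receptor of B cells needs the Cd79a and Cd79b chains to signal and is tuned by the inhibitory lectins Cd22 and Cd72. The receptor of T cells signals through the Cd3 chains and Cd247, aided by costimulation through Cd28 and adhesion through Cd2. In spleen, B cells fill the follicles and the marginal zone, T cells lie around the central arterioles, and macrophages of the red pulp clear old red cells. Lymphocytes are known as radiosensitive cells.

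All values below are the deposited signed scores, with each array centred on its median and the sign turned on arrays with irradiated RNA in Cy3. A score on the positive side means more RNA in the irradiated mice if the authors formed the ratio as Cy5 over Cy3, and less if they formed it the other way, which the sources used here do not say. The scale is not given either, so sizes are compared only with each other and with the spread. The strain value of a gene is the mean of its average over Cy5 arrays and its turned average over Cy3 arrays. A shift in such a value cannot tell fewer cells of a type from less RNA per cell.

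Between 30 and 51 of the 52 genes had a value on any 1 array, with a median of 42. Spots of low expression had been removed, so the number of arrays on which a marker was kept is the check of the tissue that these scores allow. The spleen markers Cd22 (38 arrays), Cd79a (37), Cd79b (35), Cd3e (36), Cd8b1 (37) and Cd36 (36) were kept on most of them. In contrast, Cd3d was kept on 17 arrays, Cd3g on 20 and Cd5 on 8, although T cells make all of them. Also untested were Cd28 (29 arrays), Cd40lg (22), Cd70 (31), Cd84 (25), Cd200 (15), Cd200r1 (25), Cd209g (9), Cd55b (28) and Cd9 (13). Only Cd22, Cd40, Cd47, Cd180, Cd209f and Cd5l had a value on all 38.

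3 arrays ran against others of their own dye orientation over all probes: array 97 of C57Bl6/J (lowest r = -0.658), array 53 of B6.C (-0.449) and array 50 of B6.C (-0.413). Their median r with the others was -0.238, -0.0871 and -0.0338. The lowest r alone does not single out an array, since A/J array 88 shares the -0.658 with array 97 and had a median r of 0.225. B6.C array 54, not among the 3, had a median r of -0.0975. The direction of these 3 arrays is taken as not settled, on weaker grounds for arrays 53 and 50. Of the 36 genes that keep a mean without array 97, 4 change sign and 14 more move by over 1.5 times. Array 95 was the only other Cy3 array of C57Bl6/J, so leaving it out moves a gene measured on both by the same amount the other way. Cd2, for example, had a mean over strains of 0.373, which was 0.261 without array 97 and 0.486 without array 95. The share of all probes that move in this way was not computed. Markers of pancreas, an organ that lies against the spleen, lay mostly to one side: 0 of 15 tested pancreas genes had a mean above 0, their median was -0.462 over strains, and the median of the list on single arrays ran from -4.24 to 2.13. For 6 tested red cell genes the median was -0.185, with 2 of 6 above 0. The part of either list in the results below was not tested.

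Across strains the CD antigens did not shift as a set, and no gene passed the test. Of the 40 genes 20 (50%) had a mean on the positive side, where 48.7% of all 14513 probes tested did. The median of their means was -0.0027 against -0.00675 for all probes. Their means were spread slightly wider, with a median size of 0.182 against 0.155, and their SD over the 6 strains was close to that of all probes, at 0.373 against 0.383. In limma's test of 6 strain values, 0 of 40 had an adjusted p under 0.05, as did 0% of all probes. At an unadjusted p under 0.05 there were 3, Cd59a, Cd320 and Cd5l, or 7.5% where 8.21% of all probes passed. Without C3H/HeJ 9 genes had such a p, without A/J array 46 there were 6, and without A/J, B6.C, A/J array 89 or B6.C array 48 there were 5. With the 3 unsettled arrays left out 36 genes could be tested, of which 2 had one, and with the signs of those arrays turned there were 3 of 40. The share of all probes with such a p was not computed for these changed fits. Their counts therefore cannot be read as an excess. Without array 97 alone the mean over strains went from 0.514 to 0.249 for Cd33, from 0.388 to 0.217 for Cd6, from 0.372 to 0.0204 for Cd63, from 0.332 to 0.181 for Cd53 and from 0.295 to 0.154 for Cd209f. It went from 0.271 to 0.109 for Cd7 and from 0.128 to 0.0139 for Cd247. On the negative side it went from -0.138 to -0.0165 for Cd47, from -0.221 to -0.129 for Cd55, from -0.216 to -0.130 for Cd82, from -0.242 to -0.156 for Cd151 and from -0.0899 to -0.0237 for Cd86. The genes whose mean changed sign were Cd36, to 0.00958, Cd96, to -0.0171, Cd274, to 0.0224, and Cd79a, from -0.0782 to a value above 0. Cd59a (0.586) and Cd5l (0.373) moved less, and Cd79b has no mean without this array. Leaving out array 95 instead moved genes measured on both arrays by the same amount the other way, to 0.558 for Cd6 and 0.242 for Cd247.

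**Figure D1:**
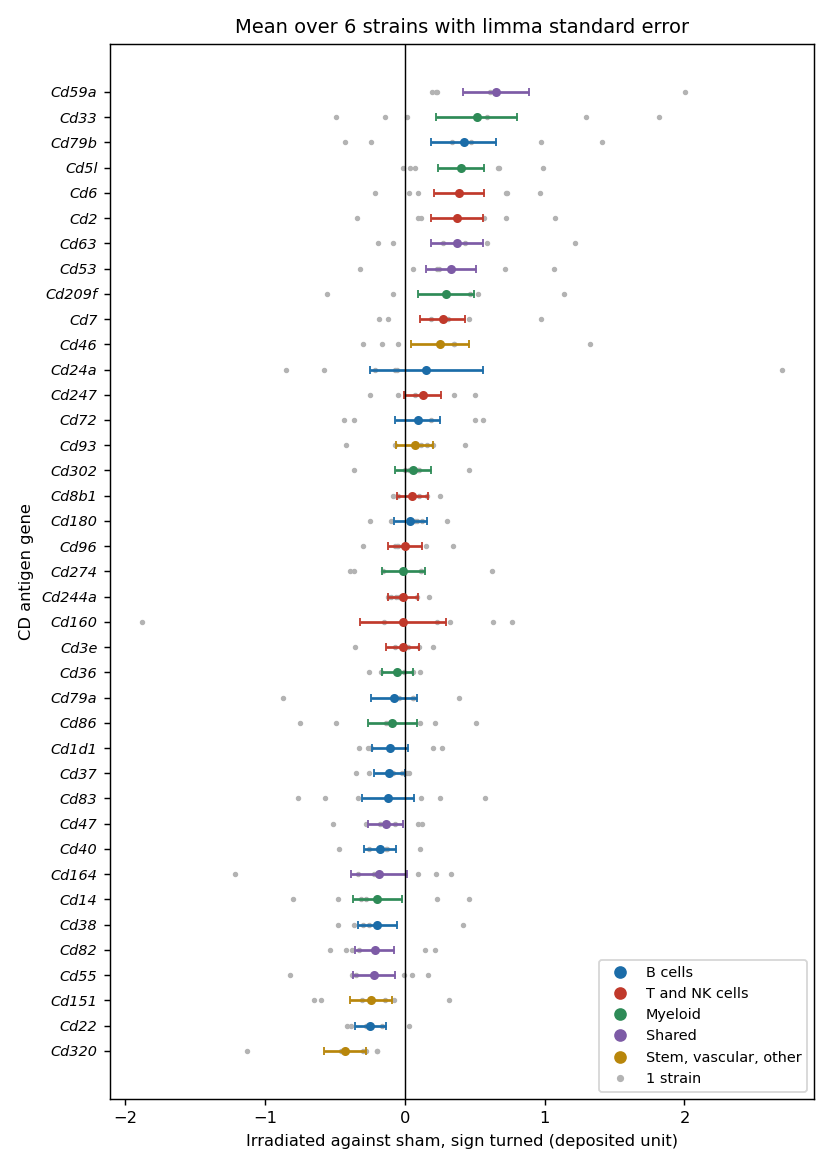
Mean over 6 strains of 39 tested CD antigen genes, in the deposited unit with the sign turned, coloured by lineage. Bars are limma's standard errors and grey points the 6 strain values. The means ran from -0.427 for Cd320 to 0.652 for Cd59a, and no gene passed the adjusted test.

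The 12 B cell and antigen presentation genes were all tested. Of these 5 had a mean above 0, and their median was -0.0906. The largest mean belonged to Cd79b (0.421 ± 0.70, SD, n = 6 strains), one of the signalling chains of the B cell receptor. Its partner chain Cd79a had a mean of -0.0782 ± 0.422. The inhibitory lectin Cd22 was on the negative side in 5 of 6 strains, from -0.415 in C57Bl6/J to 0.0280 in C3H/HeJ, and its mean of -0.246 ± 0.162 had an adjusted p of 0.567 by limma. Cd72 split 4 strains against 2, from -0.434 in C57Bl6/J to 0.562 in DBA/2J. Among the others, Cd40, the receptor for T cell help, had a mean of -0.178 and Cd38, an enzyme that consumes NAD, one of -0.198. Other means were -0.121 (Cd83), -0.109 (Cd37), -0.103 (Cd1d1), 0.0397 (Cd180) and 0.155 (Cd24a). The B cell genes thus had no common direction.

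Cd24a, a small anchored glycoprotein of immature B cells and red cell precursors, stood out by 1 strain. Its strain value was 2.70 in C3H/HeJ and between -0.848 and -0.0582 in the other 5. The C3H/HeJ arrays with a value gave 13.5 and 3.32 with irradiated RNA in Cy3, and -1.42 and -4.63 with it in Cy5. The orientations therefore had opposite signs, and 1 array held most of the value. On these 4 arrays the red cell genes had medians of -0.516 and -1.28 in Cy3 and 0.534 and 0.468 in Cy5, each opposite in sign to Cd24a, and their part in the result was not tested. Without array 26 the mean of Cd24a over strains was -0.271 in place of 0.155.

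Of the 14 T and natural killer cell genes 9 were tested, 6 of them with a mean above 0, and their median was 0.0550. The adhesion molecule Cd2 had strain values of -0.340 in A/J, 0.119 in B6.C, 0.568 in Balb/C, 0.0913 in C3H/HeJ, 0.727 in C57Bl6/J and 1.07 in DBA/2J. Cd6, a scavenger receptor family member that damps T cell signalling, ran in a similar order, from -0.215 in C3H/HeJ to 0.966 in DBA/2J. Each lay above 0 in 5 of the 6 strains, and neither passed (adjusted p = 0.567 by limma for both). The receptor chain Cd3e (-0.0149 ± 0.190) and the Cd8b1 chain of cytotoxic T cells (0.0550 ± 0.136) lay near 0. So did Cd244a (-0.0103) and Cd96 (0.00377), receptors shared with natural killer cells. Cd160, another such receptor, had a mean of -0.0135 ± 0.968, with strain values from -1.88 in C3H/HeJ to 0.763 in Balb/C. Cd247, the zeta chain of the T cell receptor complex, had a mean of 0.128 and Cd7 one of 0.271. The largest means of the group were thus those of Cd6, Cd2 and Cd7. Of the untested T cell genes, Cd3d had strain values from 0.223 in DBA/2J to 0.698 in A/J in the 4 strains with both dyes, while its 2 arrays in C57Bl6/J, both of one dye, read -0.119 and -0.114. Cd28 was at -0.370, 0.160, 0.616, 0.130 and 1.28 in A/J, B6.C, Balb/C, C3H/HeJ and DBA/2J.

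Myeloid and dendritic cell genes were tested in 8 of 10 cases, with 4 on each side and a median of 0.0232. Cd5l, which is a protein secreted by macrophages and not a membrane antigen in spite of its name, had strain values of -0.0123 in A/J, 0.0764 in B6.C, 0.671 in Balb/C, 0.0385 in C3H/HeJ, 0.664 in C57Bl6/J and 0.986 in DBA/2J. Only A/J was below 0, although B6.C was at -0.142 without arrays 50 and 53, and the mean of 0.404 ± 0.422 had an adjusted p of 0.567 by limma. The sialic acid-binding lectin Cd33 varied more, from -0.494 in Balb/C to 1.82 in C57Bl6/J (mean 0.514 ± 0.896). The C57Bl6/J arrays read 4.86 and 5.13 in Cy5 and -4.54 and 1.82 in Cy3, the last on the unsettled array 97, without which the strain value was 0.227. Without array 95 the mean over strains was 0.780. Cd209f, a lectin of the family of DC-SIGN, ranged from -0.558 in B6.C to 1.14 in DBA/2J. Cd14, the coreceptor for bacterial lipopolysaccharide, was negative in 4 of 6 strains, and all 8 Balb/C arrays were below 0, between -1.82 and -0.0215. Its 3 C3H/HeJ arrays lay at -8.17, 2.75 and 12.5, while the arrays of the other strains ran from -1.82 to 2.57. Without array 28 the mean of Cd14 over strains was -0.601 and without array 26 it was 0.210. The lipid scavenger receptor Cd36 had a mean of -0.0530, the costimulator Cd86 one of -0.0899 and the lectin Cd302 one of 0.0555.

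Among genes shared by many leukocytes, 7 of 10 were tested, 3 with a mean above 0, and the median was -0.138. Cd59a, an anchored inhibitor of the complement attack complex, was the only CD gene on the positive side in all 6 strains, as 1.47% of all probes were. Its strain values were 0.221 in A/J, 0.195 in B6.C, 0.610 in Balb/C, 0.227 in C3H/HeJ, 0.659 in C57Bl6/J (0.262 without array 97) and 2.00 in DBA/2J. The mean of 0.652 ± 0.692 did not pass (adjusted p = 0.567 by limma). It rested on 20 arrays, of which A/J and C3H/HeJ gave 2 each, and single arrays lay on both sides of 0 in every strain but DBA/2J. The probe sequences were not used here, so signal from the near copy Cd59b cannot be told apart. The tetraspanins Cd63 and Cd53 had means of 0.372 and 0.332, both highest in DBA/2J (1.21 and 1.07), though the mean of Cd63 was 0.0204 without C57Bl6/J array 97 and 0.724 without array 95, whereas the tetraspanin Cd82 had one of -0.216. Cd47, the signal that keeps macrophages from engulfing a cell, had a mean of -0.138 ± 0.240. Cd55, another complement regulator, had one of -0.221 and Cd164, a sialomucin, one of -0.186.

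The remaining 6 genes mark stem, vascular, platelet and tissue cells, and 4 were tested, 2 on each side (median -0.0858). Cd320, the receptor that takes up vitamin B12 bound to transcobalamin, was the only CD gene on the negative side in all 6 strains, where 2.8% of all probes were. Its strain values were -0.296 in A/J, -0.279 in B6.C, -1.13 in Balb/C, -0.201 in C3H/HeJ, -0.201 in C57Bl6/J and -0.454 in DBA/2J. Without array 97 the C57Bl6/J value was 0.509, so that the shared sign rests on this unsettled array. The mean was -0.427 ± 0.357 with an adjusted p of 0.567 by limma. Single arrays did not keep this sign: in C3H/HeJ they were -3.64 and -3.34 in Cy5 against 1.14 and 5.04 in Cy3, and leaving out 1 C3H/HeJ array moved the mean to between -0.589 and -0.264. In Balb/C 5 of 6 arrays were below 0, between -2.28 and 0.904. The pancreas list was lowest in the same strain, at a median of -0.890, and its part in the result was not tested. Cd46, a complement regulator, had a mean of 0.253, the endothelial and progenitor receptor Cd93 one of 0.0707 and the tetraspanin Cd151 one of -0.242.

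**Figure D2:**
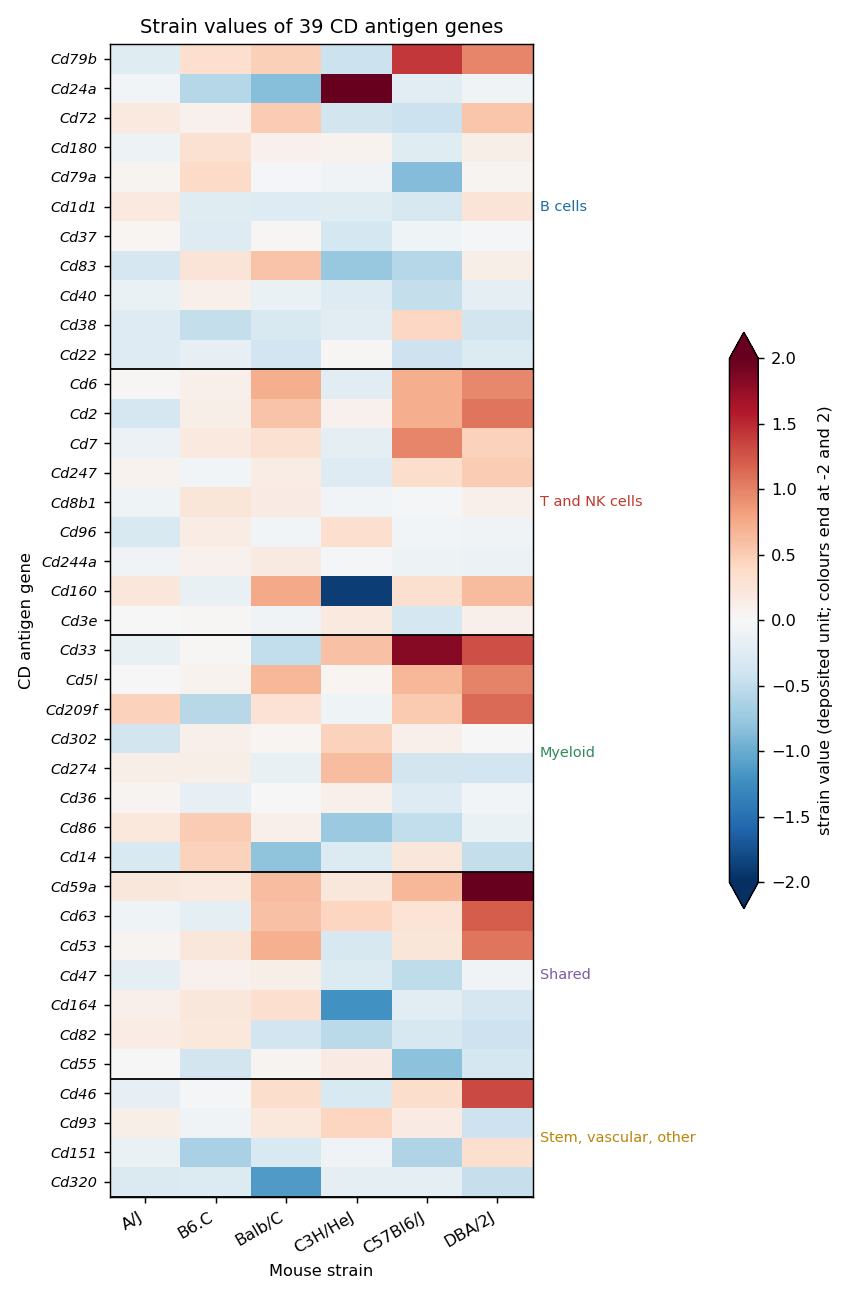
Strain value of 39 tested CD antigen genes (rows, grouped by lineage) in 6 strains (columns), in the deposited unit. Colours end at -2 and 2. The darkest cells were Cd24a in C3H/HeJ (2.70), Cd59a in DBA/2J (2.00), Cd160 in C3H/HeJ (-1.88) and Cd33 in C57Bl6/J (1.82, or 0.227 without array 97).

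The CD genes spread least in A/J and most in C3H/HeJ, as all probes did. The SD over the 40 strain values was 0.193 in A/J, 0.280 in B6.C, 0.449 in Balb/C, 0.646 in C3H/HeJ, 0.583 in C57Bl6/J and 0.622 in DBA/2J, where it was 0.303, 0.363, 0.434, 0.716, 0.648 and 0.534 over all probes. In A/J the genes lay between Cd302 (-0.361) and Cd209f (0.467). B6.C ran from Cd151 (-0.649) to Cd86 (0.512), and Balb/C from Cd320 (-1.13) to Cd160 (0.763). C3H/HeJ was widest, from Cd160 (-1.88, a value set by 2 arrays at -6.02 and 2.27) to Cd24a. C57Bl6/J ran from Cd79a (-0.871) to Cd33, or without array 97 from Cd63 (-1.84) to Cd24a (0.526) over 36 genes, and DBA/2J from Cd14 (-0.476) to Cd59a.

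Each strain was then fitted with dye as a covariate, a fit in which the swaps of a pair of mice count as separate arrays, so that its p-values are too small. No gene had an adjusted p under 0.05 in any strain. Over all probes the share with such a p was 0% in A/J, Balb/C and DBA/2J, 0.186% in B6.C, 0.51% in C3H/HeJ and 0.0345% in C57Bl6/J. The counts at an unadjusted p under 0.05 were small outside DBA/2J. In A/J it was 0 of 40, where 0.42% of all probes passed, and in B6.C 0 of 40, against 5.77%. Balb/C gave 1 gene, Cd5l, against 8.29% of all probes. C3H/HeJ gave Cd164 and Cd274, or 5% against 12%, and C57Bl6/J gave Cd79a and Cd79b, or 5% against 6.39%. In DBA/2J 7 genes passed, all on the positive side, or 17.5% against 6.2%. Single arrays moved the smaller counts: Balb/C gave 5 genes without array 84, 2 without array 5 and 0 without array 4, 35 or 36, C3H/HeJ 5 without array 28 and 4 without array 27, and B6.C 2 without array 49 and 1 without array 47 or 52. In each of these fits 39 or 40 genes could be tested, and the share of all probes with such a p was not computed.

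The 7 genes of DBA/2J came from all lineages: Cd2, Cd209f, Cd46, Cd53, Cd59a, Cd5l and Cd79b. Their arrays were unequal. On array 34, with irradiated RNA in Cy5, they read 2.89 for Cd2, 3.58 for Cd209f, 2.21 for Cd46, 3.35 for Cd53, 4.30 for Cd59a, 2.57 for Cd5l and 2.66 for Cd79b. The other Cy5 array, 83, was lower for each of the 7, from 0.587 for Cd79b to 1.98 for Cd53. Cd2, Cd46, Cd59a and Cd79b were on the positive side on every DBA/2J array with a value, Cd46 at 1.04 and 0.625 and Cd2 at 0.255 and 0.0757 in Cy3. Cd53 (-0.167 and -0.886 in Cy3), Cd5l (1.35 and -0.734) and Cd209f (0.393 and -0.550) had arrays on both sides of 0. Without array 34 the count was 0 of the 37 genes that could still be tested, and without array 68 it was 3 of 38. Cd59a and Cd79b had no other Cy3 value in DBA/2J, so they could not be tested without array 68. The count was also 0 with arrays left uncentred, and the share of all probes was not computed for these fits. The largest coefficient was that of Cd59a (2.22 ± 0.791, SE, 3 arrays), with an adjusted p of 0.759 by limma.

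In C3H/HeJ, Cd274, the ligand that engages the inhibitory receptor PD-1, was on the positive side on 6 of 6 arrays, between 0.0671 and 1.04 with a median of 0.676. Its coefficient of 0.624 ± 0.224 (SE) had an adjusted p of 0.210 by limma. In the other strains the coefficients were 0.140 in A/J, 0.104 in B6.C, -0.156 in Balb/C, -0.364 in C57Bl6/J and -0.388 in DBA/2J, and single arrays lay on both sides. The difference between strains could be tested with Cy3 arrays alone, since Cy5 values were missing, and had an adjusted p of 0.747 by limma's F test. Cd164 had 3 C3H/HeJ arrays, at -5.04, -2.54 and 1.36 (adjusted p = 0.135 by limma), so that the orientations had opposite signs.

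In C57Bl6/J the receptor chains Cd79a and Cd79b lay on opposite sides. The Cd79a arrays read -0.699, -0.783, 0.537 and -2.54, and those of Cd79b 0.655, 0.607 and 2.19. Array 97, whose direction is not settled, held the most extreme value of both. Cd79b had no other Cy3 value in this strain, so it could not be tested without array 97. Of the 36 genes tested without array 97, none had an unadjusted p under 0.05 by limma in this strain. Without array 95 there were 8 of 30, with the unsettled array 97 as the only Cy3 array left in the strain. The share of all probes was not computed for either fit, so these counts cannot be read as an excess. In B6.C both chains were on the positive side, on 7 of 8 arrays for Cd79a and 6 of 8 for Cd79b.

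**Figure D3:**
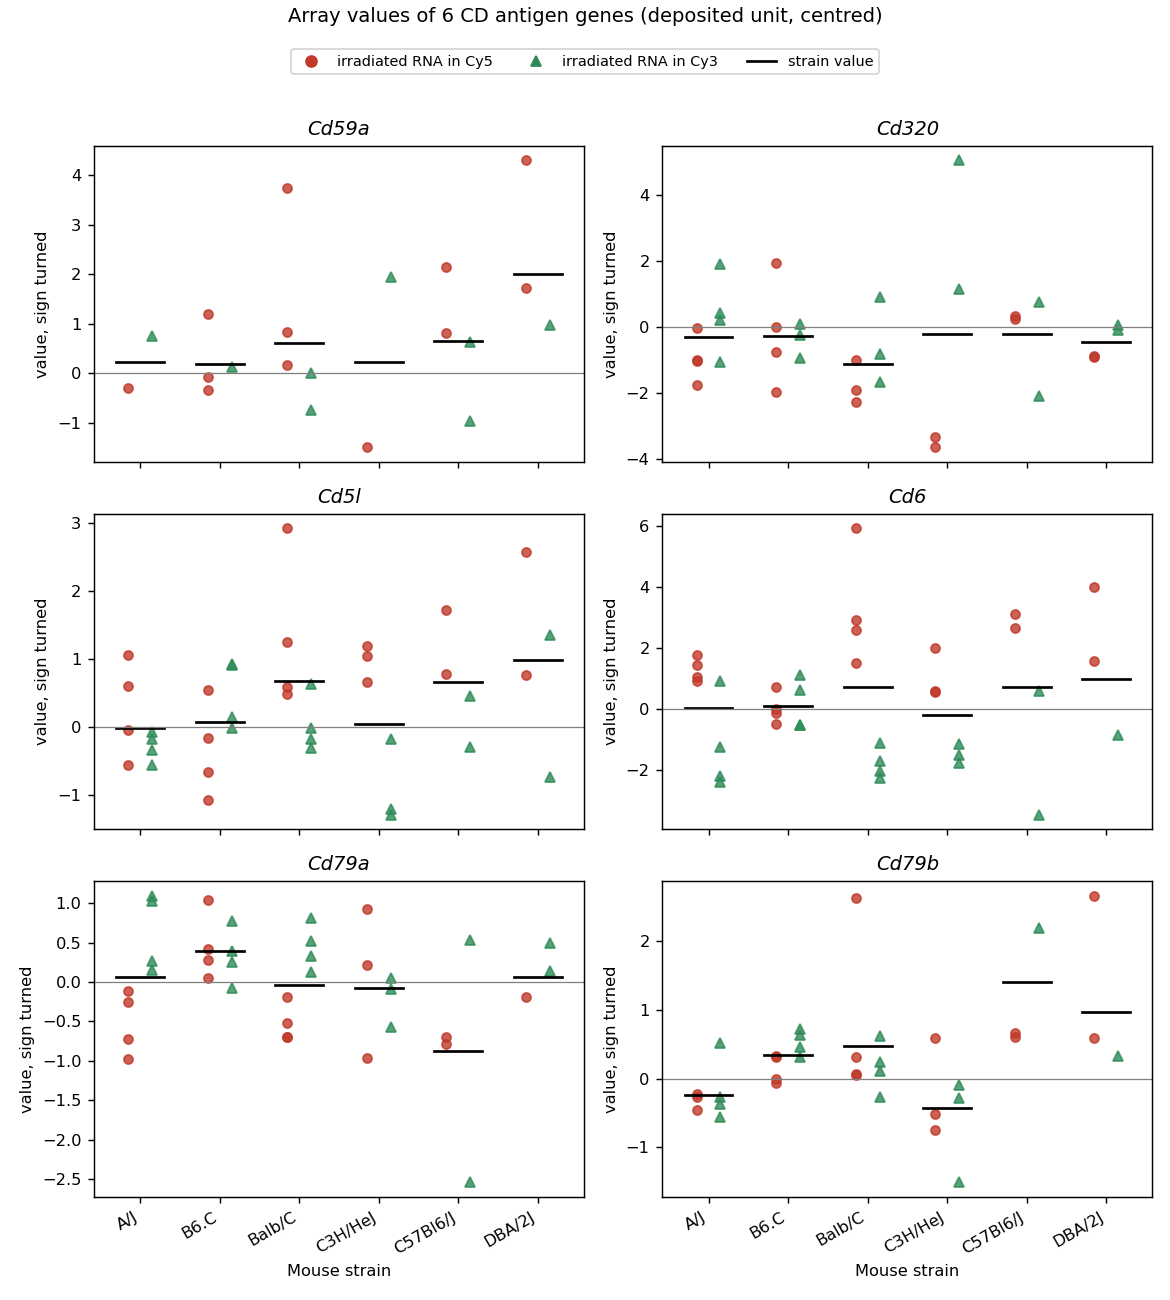
Values on single arrays of 6 CD antigen genes by strain, in the deposited unit with the sign turned. Circles are arrays with irradiated RNA in Cy5, triangles arrays with it in Cy3, and lines the strain values. Cd59a was highest on DBA/2J array 34 at 4.30, and Cd6 had Cy5 means above 0 in every strain and turned Cy3 means below 0 in every strain but B6.C (0.167).

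Differences between strains were tested among the 19 Cy5 arrays, on genes with a value on each. Since 1 dye orientation enters, a dye effect that differs between strains cannot be told apart from a difference in response. Of the 10 CD genes that could be tested, 0 had an adjusted p under 0.05 by limma's F test, where 1.76% of all probes did. An unadjusted p under 0.05 was found for 3 of 10, Cd6, Cd209f and Cd5l, where 29.2% of all probes had one. The means of Cd6 were 1.29 ± 0.385 in A/J, 0.0215 ± 0.511 in B6.C, 3.24 ± 1.90 in Balb/C, 1.06 ± 0.819 in C3H/HeJ, 2.89 ± 0.306 in C57Bl6/J and 2.79 ± 1.73 in DBA/2J (SD over 2 to 4 arrays). On Cy3 arrays, where Cd6 could not be tested, its turned means were -1.23 in A/J, 0.167 in B6.C, -1.78 in Balb/C, -1.48 in C3H/HeJ, -1.44 in C57Bl6/J and -0.858 in DBA/2J. The strains far above 0 in Cy5 were thus below 0 in Cy3. In the F test over Cy5 arrays the adjusted p of Cd6 was 0.0712. B6.C had the lowest Cy5 mean. Leaving out Balb/C array 3, 5 or 36 brought the adjusted p of Cd6 in the F test to 0.0287, 0.0426 and 0.0290. In these fits 4.35%, 12% and 5.14% of all probes had an adjusted p under 0.05, against 1.76% with all arrays. Leaving out B6.C array 47 or C3H/HeJ array 27 raised that of Cd6 to 0.157 and 0.127. Without array 53, whose direction is not settled, it was 0.105. In that fit 5 of 10 genes had an unadjusted p under 0.05, and the share of all probes was not computed. Cd209f also had its lowest mean in B6.C (-0.497) and its highest in DBA/2J (2.35), as had Cd5l (-0.337 and 1.66), with adjusted p of 0.151 and 0.158 by limma. Over the 19 Cy3 arrays 0 of 14 CD genes passed, where 0.593% of all probes did. There 1 of 14, Cd40, had an unadjusted p under 0.05 (17.8% of all probes), with a turned mean of -1.02 in C3H/HeJ and an adjusted p of 0.190.

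For most CD genes the mean over arrays of both orientations was farther from 0 when signs were not turned, which is the part of a value that keeps its sign when the dyes are swapped. This mean was larger in size than the turned mean for 34 of 40 genes (85%), against 72.8% of all probes. The median size was 0.351 with signs not turned and 0.182 with signs turned. Means with signs not turned were highest for Cd33 (1.76), Cd6 (1.49), Cd63 (1.19) and Cd53 (0.921), and lowest for Cd14 (-1.25), Cd24a (-0.780) and Cd320 (-0.739). Of the 5 genes with the largest turned means, Cd59a (0.107) and Cd79b (0.0173) were the ones whose turned mean was the larger. Since strain values weigh both orientations equally, a constant dye effect cancels in them. An effect that differs between arrays does not.

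**Figure D4:**
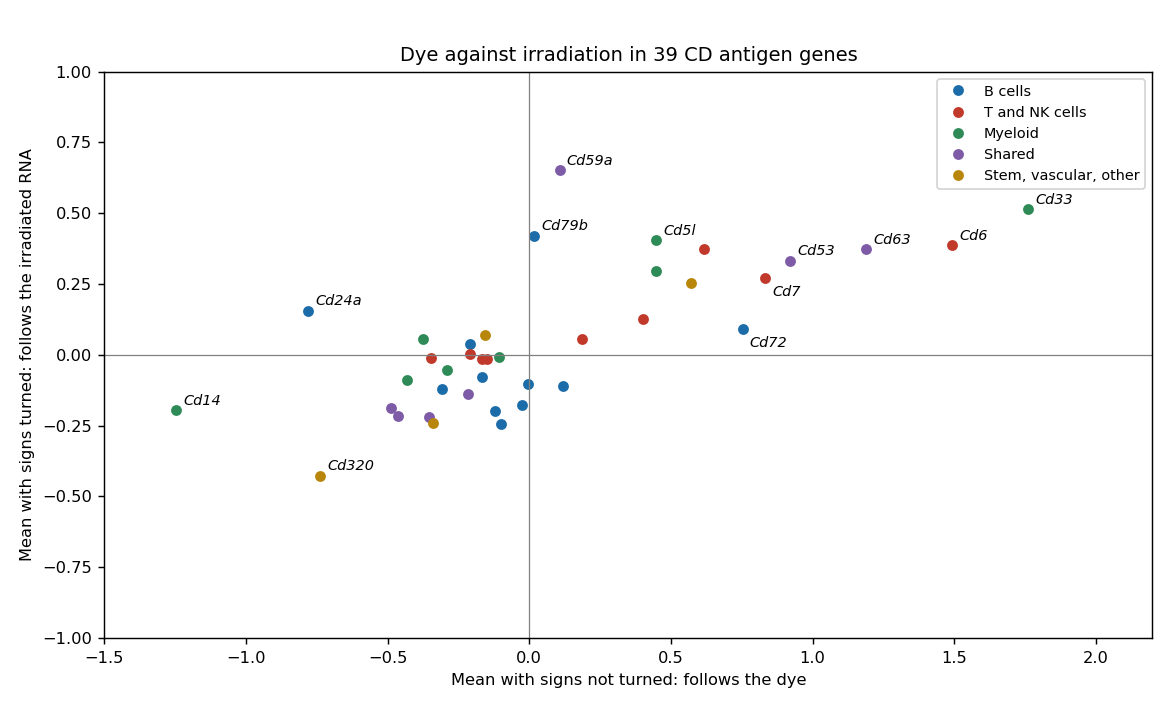
Mean over strains of 39 tested CD antigen genes with signs not turned (x axis) against the mean with signs turned for irradiated RNA in Cy3 (y axis), both in the deposited unit. Cd33, Cd6 and Cd63 lie far to the right at 1.76, 1.49 and 1.19, while no gene lies above 0.652 or below -0.427 on the y axis.

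Among 4 pairs of genes whose products act together, none had an adjusted p under 0.05 over the Cy5 arrays. Between Cd79a and Cd79b the Pearson correlation was -0.0258 and Spearman's rho 0.162 over 17 arrays (permutation p adjusted over 4 pairs = 0.925 and 0.533). For Cd3e and Cd247 they were -0.489 and -0.577 over 16 arrays (adjusted permutation p = 0.229 and 0.0873). For Cd28 and its ligand Cd86 they were -0.126 and -0.560 over 13 arrays (adjusted permutation p = 0.925 and 0.0997). For Cd22 and Cd79b they were -0.290 and -0.311 over 18 arrays (adjusted permutation p = 0.479 and 0.277). Without the 2 arrays farthest from the median of the first gene, the Pearson correlations were -0.0774, -0.662, -0.151 and -0.458. Arrays of 1 strain are not independent of each other, and with strain means removed the correlations were 0.158, -0.379, -0.214 and -0.0163. Over the Cy3 arrays they were -0.586 for Cd79a with Cd79b, -0.0967 for Cd3e with Cd247, 0.00909 for Cd28 with Cd86 and 0.0505 for Cd22 with Cd79b (adjusted permutation p = 0.159 for the first and 0.979 for the others), and the first was 0.0624 without its 2 farthest arrays.

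The highest correlations are given as a description, without a test, over arrays that share strain, dye and array-wide shifts. Of 830 pairs of CD genes with at least 12 shared Cy5 arrays, 8 (0.964%) passed the correlation threshold that the study's network analysis used, the lowest of them Cd53 with Cd79b at 0.882, where 0.919% of all probe pairs did. The study applied this threshold to expression levels of single animals, separately in control and irradiated mice, on genes seen in at least 19 hybridizations. Here it was applied to signed scores of irradiated against sham RNA on single arrays. Of these 8 pairs 7 joined different lineages (87.5%), as did 80.6% of the 830. With irradiated RNA in Cy3 there were 2 of 822, or 0.243%, against 0.558%. The closest was Cd2 with Cd28, at 0.965 in Cy5 and 0.702 in Cy3, both genes of T cells. Cd2 also ran with Cd53 (0.931 and 0.746), Cd53 with the B cell gene Cd79b (0.785 in Cy3), and Cd28 with Cd46 (0.886 and 0.520). Cd164 with Cd86 was at 0.885 in Cy5 but 0.124 in Cy3. With strain means removed, Cd2 with Cd28 was at 0.943 in Cy5 and 0.488 in Cy3, and Cd53 with Cd79b at 0.837 and 0.307. On Balb/C array 36 the T and natural killer cell genes had a median of 3.70, with Cd6 at 5.94, Cd2 at 4.00 and Cd28 at 3.71, while the B cell genes had one of -0.340. Cd46, a complement regulator, was high there too, at 4.02, whereas Cd3e was at -0.149 and Cd8b1 at -0.208.

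**Figure D5:**
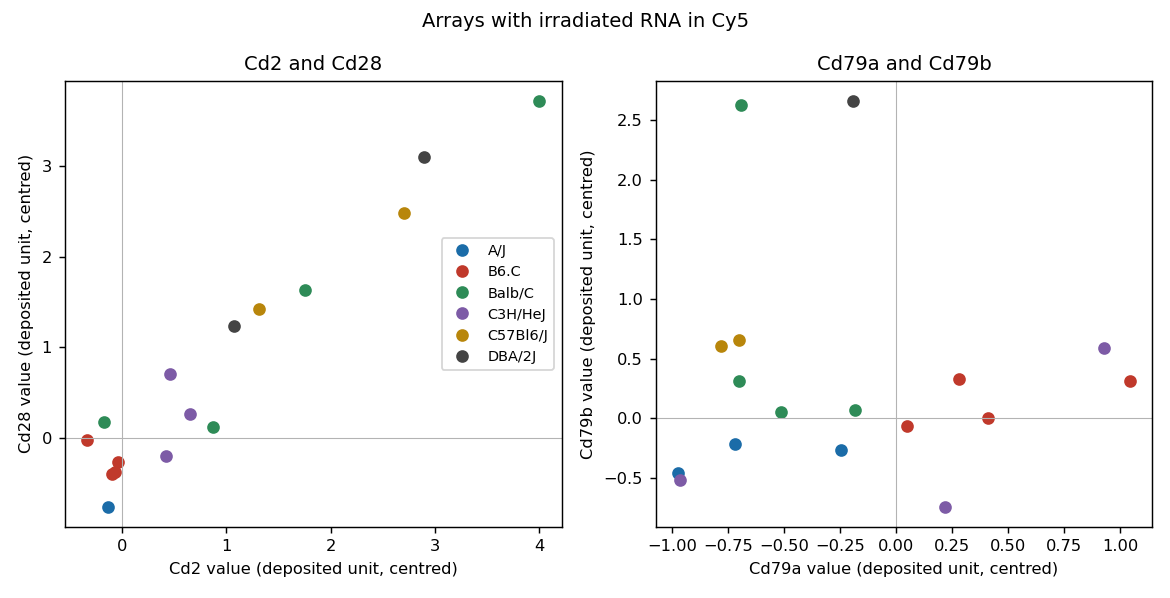
Values of Cd28 against Cd2 (left) and of Cd79b against Cd79a (right) on arrays with irradiated RNA in Cy5, in the deposited unit, coloured by strain. For Cd2 and Cd28 the correlation over 16 arrays was 0.965, and for the chains of the B cell receptor over 17 arrays it was -0.0258.

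Cd22 with the macrophage gene Cd36 (0.896 in Cy5 and 0.786 in Cy3) and Cd47 with Cd79a (0.789 and 0.890) were the pairs, of the 10 past the threshold with either dye, for which windows of both genes were matched. Their promoters are shown so that genes whose values ran together can be read side by side. RefSeq windows (build GRCm38.p6) matched 35 of the 52 genes. The 250 bases before the start are printed 5′ to 3′ on the gene's strand, chr7:30879029-30879278 (minus strand) for Cd22, chr5:17835897-17836146 (minus) for Cd36, chr16:49855404-49855653 (plus, the first of 2 windows) for Cd47 and chr7:24897247-24897496 (plus) for Cd79a, with GC boxes in capitals.
Cd22: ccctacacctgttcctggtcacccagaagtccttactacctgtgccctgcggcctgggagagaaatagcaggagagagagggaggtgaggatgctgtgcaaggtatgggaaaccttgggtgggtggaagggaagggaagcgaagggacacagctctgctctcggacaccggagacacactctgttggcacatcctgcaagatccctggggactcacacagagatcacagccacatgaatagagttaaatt
Cd36: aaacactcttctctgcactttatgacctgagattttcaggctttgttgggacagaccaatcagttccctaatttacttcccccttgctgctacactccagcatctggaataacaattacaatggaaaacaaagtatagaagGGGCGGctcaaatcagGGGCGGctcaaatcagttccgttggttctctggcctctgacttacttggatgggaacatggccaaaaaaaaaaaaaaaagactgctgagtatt
Cd47: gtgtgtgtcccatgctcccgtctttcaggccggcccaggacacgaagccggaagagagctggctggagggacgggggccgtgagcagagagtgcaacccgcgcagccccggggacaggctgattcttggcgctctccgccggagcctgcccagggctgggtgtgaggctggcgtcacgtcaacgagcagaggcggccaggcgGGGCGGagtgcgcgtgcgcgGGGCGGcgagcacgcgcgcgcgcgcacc
Cd79a: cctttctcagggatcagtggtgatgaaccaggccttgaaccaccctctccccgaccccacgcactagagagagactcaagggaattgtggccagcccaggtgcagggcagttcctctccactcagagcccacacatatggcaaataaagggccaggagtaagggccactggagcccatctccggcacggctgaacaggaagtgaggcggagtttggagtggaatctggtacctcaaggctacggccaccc
The GC box GGGCGG, read on both strands, occurred 2 times each for Cd36 and Cd47 and 0 times for Cd22 and Cd79a, so neither pair shared it. It was found in 37.2% of 43 windows of CD genes and in 32.7% of 32851 promoters of the same length. The ETS core GGAA, also on both strands, occurred 5 times for Cd22, 6 for Cd36, 1 for Cd47 and 4 for Cd79a, and 93.5% of all promoters held it. A match is a string of letters and not a site shown to be bound.

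Surface antigens with other names gave a similar picture. Means above 0 were found for 4 of 7 tested B cell genes (median 0.0624), 5 of 7 T and natural killer cell genes (0.116) and 3 of 8 myeloid genes (-0.0321). They were found for 7 of 13 adhesion genes (0.0227) and 4 of 11 genes of red cells, platelets and stem cells (-0.0538). Those with an unadjusted p under 0.05 were the B cell gene Ly86 and the platelet gene Gp9, both named after their values were seen, and 0 of these 46 genes had an adjusted p under 0.05 by limma.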

How the data were processed

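Spleen RNA of male mice of 6 inbred strains was hybridised to 38 two-colour oligonucleotide arrays, each with 1 sham and 1 irradiated mouse. Per the study's methods, the authors removed poor and low spots, subtracted local background and applied Lowess normalisation before they deposited 1 signed score per spot. Neither labels nor methods state the scale or dye direction of these scores. The methods mention centring slides on their medians for a separate correlation analysis, and the deposited scores were not centred in this way. Since they hold no spot intensities, signal over background is unknown. Between 10941 and 19860 probes had a value per array, and the number of mice limits the precision.

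Scores of 1 probe were averaged, each array was centred on its median (deposited medians ran from -3.16 to 3.95), and the sign was turned where Cy3 held irradiated RNA. Accessions were named through RefSeq. Limma 3.58.1 in R 4.3.3 tested the 6 strain values against 0, each strain over 38 arrays with dye as a covariate, and strains against each other by an F test, with Benjamini-Hochberg adjustment over all probes tested, of which 14513 had values on at least 19 arrays and with both dyes in every strain. Scripts were tested on simulated data with independent normal noise. In these the test over strains recovered 6% of changes of 0.5, 60% of changes of 1 and 94% of changes of 2. For changes in Balb/C alone, the F test recovered 0% of those of 1 and 12.5% of those of 2. A gene that did not pass is therefore not shown to be unchanged. Strain values take each strain as 1 unit. The p-values for single strains use the spread between arrays pooled over all strains, and swaps enter separately.

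Named are up to 8 genes per side with the smallest p over strains, genes of one sign in all 6 strains, the 5 with the smallest F test p, the highest and lowest of each strain, and genes that define a lineage. The members, lists and tests were chosen with earlier results of these data known, and the lineage of Cd70 was set after the files were seen. Cd4 and Cd2ap were left out by name, and 1 tested gene, which the counts and medians include, is not reported here on its own. Alternatives changed the centring, scaling, weighting, minimum number of arrays and the signs of 3 arrays, and left out arrays and strains.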

Additional observations from a re-analysis of the deposited data

Results flagged for a closer look

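Among the 6 strain values of each of the 40 tested genes, 6 genes had 1 strain set apart from the others by a gap large against the range. For normal values of equal spread, chance meets this criterion in about 1 of 20 groups. Strain values here rest on unequal numbers of arrays, and the share over all probes was not computed. The count of 6 genes therefore cannot be read as an excess. Cd24a stood at 2.70 in C3H/HeJ and between -0.848 and -0.0582 elsewhere. Cd160 stood at -1.88 in C3H/HeJ, against -0.151 to 0.763. Cd320 was at -1.13 in Balb/C, against -0.454 to -0.201. Cd59a was at 2.00 in DBA/2J, against 0.195 to 0.659. In C57Bl6/J, Cd38 was at 0.415, against -0.478 to -0.205, and Cd79a at -0.871 (-0.102 without array 97), against -0.0709 to 0.391.

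Of 36 groups of arrays formed by a gene list and a strain, 2 held an array set apart in the same way. The median of the T and natural killer cell genes was 3.70 on Balb/C array 36, against -0.576 to 0.673 on the other Balb/C arrays. The median of the stem, vascular, platelet and tissue genes was -2.18 on A/J array 89, against -0.196 to 1.06 on the other A/J arrays. It rested on Cd151 at -2.61 and Cd320 at -1.76, the only genes of this list with a value on that array.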

How the results depend on the processing

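No CD gene passed the adjusted test over strains, or in any single strain, under any alternative run. The 3 genes with an unadjusted p under 0.05 over strains became 1 with values left uncentred and 1 among the 6 genes with values on all 38 arrays. Leaving out an array or strain gave 2 to 9. The share of all probes at this p was not computed under these alternatives. Uncentred values moved the median of all probes to 0.121 and that of the CD genes to 0.143, with group medians of 0.107 for B cell, 0.115 for myeloid, 0.248 for T and natural killer cell and 0.232 for stem and tissue genes. The median of the stem and tissue genes was 0.0356 with the signs of arrays 50, 53 and 97 turned and -0.157 to -0.0311 with 1 strain left out. Group medians were not computed with single arrays left out. Between strains, 0 genes had an adjusted p under 0.05, against 10 of 10 with uncentred values (98.5% of all probes). With values on at least 2 arrays of every strain there were 2 of 26, Cd164 and Cd33 (3.58%). Without 1 array of A/J, B6.C, Balb/C or C3H/HeJ there were 0 to 1 (Cd6), where 0% to 12% of all probes passed. Uncentred values also brought the partner correlations to 0.887 for Cd79a with Cd79b, 0.914 for Cd3e with Cd247, 0.737 for Cd28 with Cd86 and 0.842 for Cd22 with Cd79b, as array-wide offsets enter both genes. No paired analysis was possible because the labels share no replicate numbers across groups and do not say which arrays are swaps of each other, while the sham and the irradiated mouse of an array are already set against each other in every score. Cd59a had a mean of 0.383 without DBA/2J, and Cd320 one of -0.286 without Balb/C. The signs of the members' means changed for 10 of 40 genes with uncentred values and 9 with those 3 signs turned. The number of strains and mice, the unknown scale and dye direction, and the removed spots limit what these data show.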
